A study of Mus musculus with 10 samples.

Results

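The transcripts of 9 liver hormones and related secreted proteins were followed in mouse liver, namely Fgf21, Gdf15, Fst, Inhba, Inhbe, Angptl4, Angptl6, Angptl8 and Fetub. They were chosen by gene symbol from the deposited table, all 9 were found among its 53392 genes, and all 9 passed the filter on low counts that left 15392 genes to test. Livers were compared from 2 groups of C57BL/6 mice, both aged 24 weeks and neither given any treatment named in the labels. One group was wild type (WT, replicates 1 to 5) and the other had lost Fbp1 from the liver (Fbp1-deleted, replicates 6 to 10). Fbp1 encodes the fructose bisphosphatase of gluconeogenesis. The sources used here do not say how and when the deletion was made, which promoter drove it, or what the sex and feeding state of the mice were. The comparison addresses what the liver transcriptome looks like once Fbp1 is gone.

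The liver reports its nutrient and stress state to other organs through secreted proteins, often called hepatokines. FGF21 is an endocrine fibroblast growth factor that acts through FGF receptors with the coreceptor beta-Klotho, and GDF15 is a stress hormone sensed in the hindbrain through GFRAL and RET. Activins are dimers of inhibin beta subunits that signal through activin receptors and SMAD proteins, and follistatin, the product of Fst, binds and blocks them. Angiopoietin-like proteins 4 and 8 restrain lipoprotein lipase, the former known from fasting and the latter induced by feeding and insulin.

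The libraries held between 17778395 and 23894812 estimated counts. Levels are in CPM, counts scaled to a library size of 1000000, with mean ± SD over a group's 5 livers. A log2 change is Fbp1-deleted minus WT, and SE is its standard error in the fit. Adjusted p values come from edgeR's quasi-likelihood test with Benjamini-Hochberg adjustment over all genes tested, with a threshold of 0.05. Fbp1 itself stood between 778 and 1050 CPM in WT and between 7.38 and 13.4 CPM in Fbp1-deleted liver. WT replicates 1 and 2 had the highest mitochondrial shares of the WT livers. In them 6.47 and 5.52% of counts came from mitochondrial genes, against 4.24 to 4.44% in replicates 3 to 5 and 4.77 to 5.72% in Fbp1-deleted liver. Replicates 1 and 2 differed less from each other (chi-square per degree of freedom 16.8) than from replicates 3 to 5 (42.2 to 70.9). Replicates 3 and 4 were also close (21.3), but replicate 5 was far from both (51.2 and 67.5). By that measure WT replicates 3 to 5 were thus not 1 group. The closest Fbp1-deleted pairs were replicates 6 and 7 (16.2), 6 and 9 (23.0) and 9 and 10 (29.3). Fbp1-deleted replicate 8 was far from all others in its group (44.8 to 60.5), and farthest from replicate 10. For the mitochondrial share of WT replicates 1 and 2, results are also given with both left out, a fit chosen after seeing the data. In it the remaining WT livers (4.24 to 4.44%) all lie below the Fbp1-deleted livers (4.77 to 5.72%) in that share. Mitochondrial share and genotype thus cannot be told apart in that fit. It also holds fewer WT livers, which can by itself cost a call. In that fit 750 genes were higher and 816 lower, against 1636 and 1542 with all libraries. All 8 hepatocyte markers examined were present in both groups and 2 of them, Tat and Cps1, rose, with summed levels of 64989 to 108058 CPM in WT and 93783 to 105118 CPM in Fbp1-deleted liver. The call of Cps1 was lost without WT replicate 2 or 5, without Fbp1-deleted replicate 6, 9 or 10 (adjusted p from 0.05002 to 0.0541, edgeR), and with WT replicates 1 and 2 both left out (0.101). Of 7 Kupffer cell markers 4 fell, with sums of 226 to 314 CPM in WT and 169 to 248 CPM in Fbp1-deleted liver. Of 6 tested markers of other leukocytes 2 fell, with sums of 9.97 to 12.9 and 3.54 to 8.44 CPM. Among stellate markers 1 of 7, Dcn, rose (sums of 188 to 271 and 245 to 323 CPM). Among sinusoidal endothelial markers 1 of 6, Lyve1, rose (190 to 224 and 137 to 227 CPM). The 5 that did not pass, Clec4g, Stab2, Kdr, Pecam1 and Oit3, had negative changes (-0.38 to -0.15), and the list's median change was -0.22. Their sums, with Lyve1, were 137 to 182 CPM in Fbp1-deleted replicates 6 to 9 and 227 CPM in replicate 10. The cholangiocyte markers summed to 16.5 to 29.1 and 12.9 to 22.2 CPM. Adipocyte markers summed to 7.85 to 34.7 and 24.8 to 102 CPM, with Plin4 the only one tested, Lep at 0 in all libraries and Adipoq at most 0.167 CPM. Muscle and pancreas markers summed to 7.97 to 14.6 and 3.64 to 7.90 CPM. Nearly all of that was Cela1 (7.56 to 13.9 and 3.40 to 7.47 CPM), the only one tested. It fell (log2 change -0.97, SE 0.26, adjusted p = 0.0183, edgeR). Over all genes tested 20.6% were called. The share was 57.1% for Kupffer cell markers and 33.3% for other leukocyte markers. It was 25% for hepatocyte, 14.3% for stellate and 16.7% for sinusoidal endothelial markers, near that of all genes. In bulk liver, fewer cells of a type and less RNA per cell cannot be told apart, and the part of these marker shifts in the results below was not tested.

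Fgf21, Fst and Angptl4 rose in Fbp1-deleted liver, and Angptl8 and Fetub fell. Gdf15, Inhba, Inhbe and Angptl6 did not pass the test. With WT replicates 1 and 2 both left out, only Fst and Fetub were still called, and Fgf21, Angptl4 and Angptl8 had the same direction without passing. The 5 members called compare with 20.6% of the genes tested that were called in either direction, 10.6% higher and 10.02% lower. The members were chosen with earlier results of these data known, so this comparison is a description only. The groups did not overlap for Fgf21, Fst and Angptl8, a separation seen in 13.5% of the genes tested, 6.57% with the Fbp1-deleted livers higher and 6.89% with them lower. The median change over the 9 members was 0.21, against 0.01 over all genes tested. Higher genes made up 51.5% of all calls, but 40.3% when scaled by upper quartiles and 37.7% by library totals, and no member changed its call under either.

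**Figure D1:**
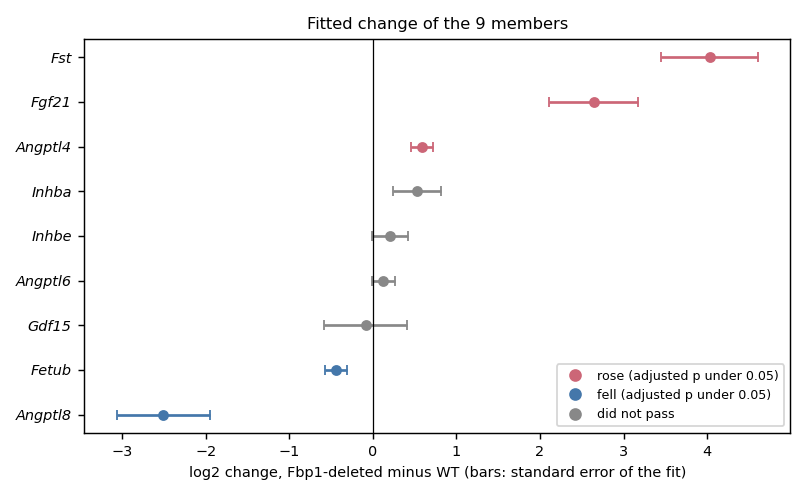
Fitted log2 change of the 9 members, Fbp1-deleted minus WT, on the x axis, with bars for the standard error of the fit and colours for the call. Fst (4.03) and Fgf21 (2.64) lie farthest to the right, Angptl8 (-2.51) farthest to the left, and 4 members did not pass.

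Fgf21 (ENSMUSG00000030827.5, minus strand of chromosome 7, 45613886 to 45615490 in GRCm38, protein-coding) was low in WT and higher in every Fbp1-deleted liver. WT replicates 1 to 5 held 1.87, 1.23, 2.87, 2.08 and 1.44 CPM. Fbp1-deleted replicates 6 to 10 held 16.4, 18.6, 4.51, 16.6 and 2.98 CPM. The groups did not overlap, but the Fbp1-deleted livers differed widely: replicates 6, 7 and 9 stood at 8.64, 9.81 and 8.74 times the WT mean, and replicates 8 and 10 at 2.38 and 1.57 times. Fgf21 averaged 1.90 ± 0.640 CPM in WT and 11.8 ± 7.44 CPM in Fbp1-deleted liver (log2 change 2.64, SE 0.53, adjusted p = 0.00744, edgeR), a 6.25-fold rise. In counts, WT libraries held 28 to 53 Fgf21 fragments. The call held with each library left out in turn, with changes between 2.42 and 2.88, but was lost with WT replicates 1 and 2 both left out (log2 change 2.47, SE 0.71, adjusted p = 0.0675, edgeR).

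The bases upstream of Fgf21 are shown because they hold the core of an amino acid response element, a site bound by ATF4 and CHOP, whose genes are described with the upstream factors. Capitals mark the match to TGATGNAA or its reverse complement TTNCATCA, and each sequence is read 5′ to 3′ on the strand of its gene, from RefSeq in GRCm38.p6. For Fgf21 and Angptl8 the 250 bases before the RefSeq start are given (chr7:45615491-45615740, minus strand, and chr9:21835260-21835509, plus strand, the latter inside an intron of Dock6). For Inhbe only 30 bases around the match are given (chr10:127352011-127352040, minus strand), a stretch that GENCODE places inside the first exon of a longer Inhbe transcript. Gdf15, upstream of whose starts no exact match was found, is shown for comparison (chr8:70632457-70632706, minus strand). Only exact matches were counted. The Gdf15 sequence holds gtgcatca, which differs from TTNCATCA in its first base.
Fgf21: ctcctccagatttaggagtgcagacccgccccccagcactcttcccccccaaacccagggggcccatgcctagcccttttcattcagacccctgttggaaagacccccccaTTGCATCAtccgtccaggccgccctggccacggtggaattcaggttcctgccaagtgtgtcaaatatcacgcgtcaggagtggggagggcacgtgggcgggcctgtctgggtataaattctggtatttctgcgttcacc
Inhbe: catcctctttcTTGCATCAtgcatgtccac
Angptl8: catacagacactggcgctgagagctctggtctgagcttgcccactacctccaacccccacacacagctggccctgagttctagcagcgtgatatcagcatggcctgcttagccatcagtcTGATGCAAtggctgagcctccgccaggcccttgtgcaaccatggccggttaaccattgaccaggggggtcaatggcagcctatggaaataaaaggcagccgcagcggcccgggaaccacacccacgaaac
Gdf15: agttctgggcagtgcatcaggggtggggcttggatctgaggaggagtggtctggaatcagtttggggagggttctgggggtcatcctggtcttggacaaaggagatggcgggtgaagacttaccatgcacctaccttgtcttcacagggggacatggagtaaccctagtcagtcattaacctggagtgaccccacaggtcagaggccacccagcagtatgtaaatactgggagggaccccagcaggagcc

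Promoter sequences were matched for 7 of the 9 members, all but Fst and Angptl4. The motif stood upstream of 3 of them, Fgf21 (139 to 132 bases before the start), Inhbe (181 to 174) and Angptl8 (130 to 123), and in 3.45% of the 32851 upstream windows of the same length. The 3 genes did not share a direction: Fgf21 rose, Angptl8 fell and Inhbe did not pass. An E-box, CACGTG, which reads the same on both strands and is found in 6.02% of windows, stood upstream of Fgf21 (50 to 45 bases before the start) and of the downstream RefSeq start of Gdf15. The FOXO motif GTAAACA (3.17% of windows) matched upstream of 1 start of Fetub, and the nuclear receptor motif AGGTCA (14.0% of windows) upstream of 1 start of Gdf15. The cyclic AMP response motif TGACGT (6.47% of windows) was not found in the members' windows. Both strands were searched for each motif. These matches describe the letters only.

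Gdf15 (ENSMUSG00000038508.7, minus strand of chromosome 8, 70629393 to 70632456) did not pass the test, but varied widely among Fbp1-deleted livers. In WT replicates 1 to 5 it stood at 7.04, 7.27, 5.52, 9.998 and 12.03 CPM. In Fbp1-deleted replicates 6 to 10 it stood at 11.02, 11.6, 1.36, 11.3 and 4.13 CPM. Replicates 8 and 10 were thus below every WT liver, and replicates 6, 7 and 9 lay within the WT range. The means were 8.37 ± 2.61 CPM in WT and 7.89 ± 4.80 CPM in Fbp1-deleted liver (log2 change -0.09, SE 0.49, adjusted p = 0.921, edgeR). Its sign turned without WT replicate 5 (0.07), Fbp1-deleted replicate 8 (0.19) or Fbp1-deleted replicate 10 (0.07). The highest Fbp1-deleted library held 8.58 times the lowest, against 2.18 times in WT. Its receptor Gfral, known from the hindbrain, was at 0 in all libraries, and the coreceptor Ret reached at most 0.328 CPM.

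**Figure D2:**
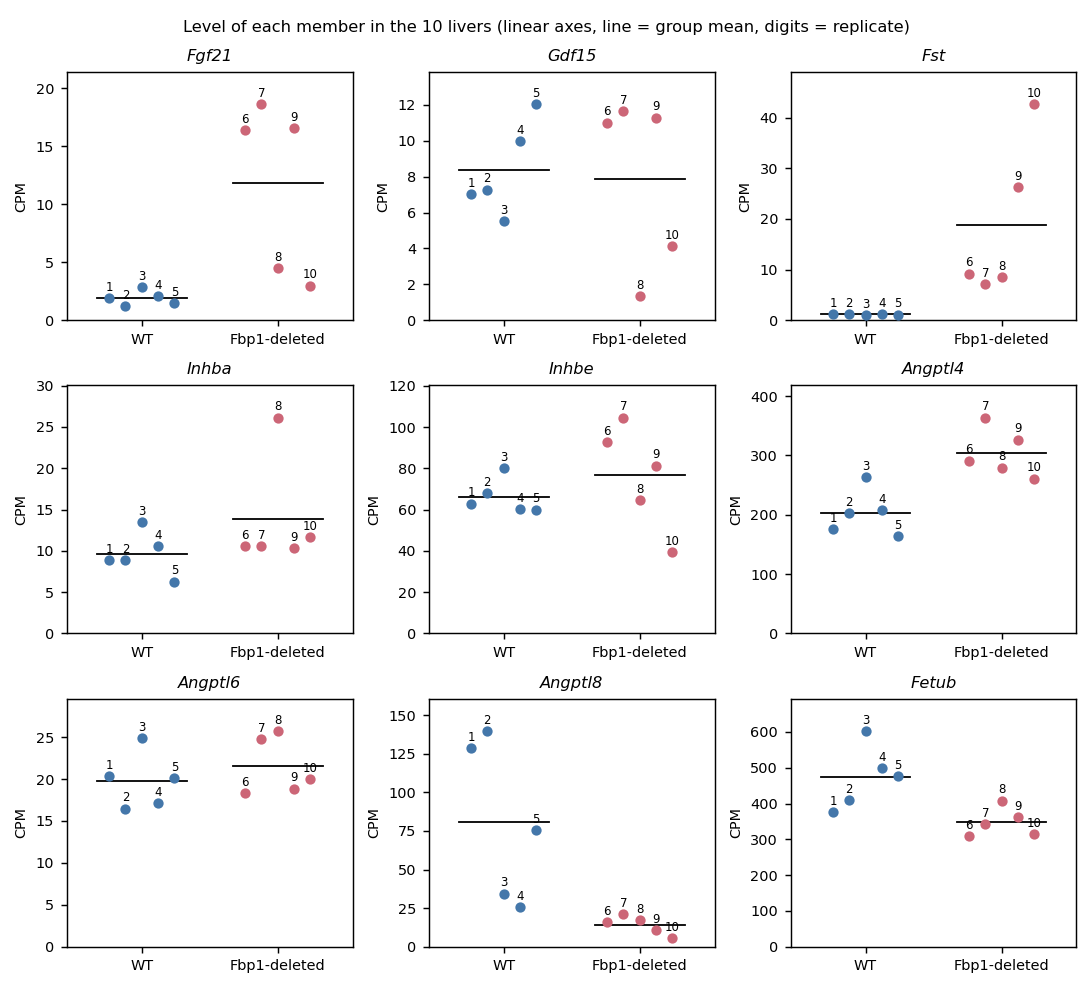
CPM of each member in the 10 livers on linear axes, with WT and Fbp1-deleted livers on the x axis, digits for the replicate and a line at the group mean. Replicates 8 and 10 are the lowest Fbp1-deleted livers for Fgf21 (4.51 and 2.98 CPM), Gdf15 (1.36 and 4.13 CPM) and Inhbe (64.6 and 39.6 CPM), while replicate 10 is the highest for Fst (42.7 CPM).

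Fst (ENSMUSG00000021765.9, minus strand of chromosome 13, 114452290 to 114458951) rose in every Fbp1-deleted liver and had the largest change among the 9 members. Its level in WT replicates 1 to 5 was 1.23, 1.14, 1.03, 1.20 and 1.08 CPM, from 19 to 28 counts. Its level in Fbp1-deleted replicates 6 to 10 was 9.20, 7.08, 8.53, 26.3 and 42.7 CPM, from 127 to 774 counts. WT livers lay within a range of 1.20-fold, whereas the Fbp1-deleted livers spanned 6.03-fold, with replicates 9 and 10 apart from the other 3 at 23.1 and 37.5 times the WT mean. The log2 change was 4.03 (SE 0.58, adjusted p = 0.00156, edgeR), or 16.4-fold, and lay between 3.47 and 4.24 with each library left out. Fst was also called with WT replicates 1 and 2 both left out (4.07, SE 0.84, adjusted p = 0.0265, edgeR). Exons of Fst overlap the antisense gene Gm47040 by 115 bases, and strand was not kept. Gm47040 was assigned at most 3 counts in any library. The order of the Fbp1-deleted livers differed from that of Fgf21: replicate 10 was the highest for Fst and the lowest for Fgf21.

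Inhba (ENSMUSG00000041324.14, plus strand of chromosome 13, 16011851 to 16031621), which encodes the subunit of activin A, did not pass the test. WT replicates 1 to 5 held 8.90, 8.87, 13.5, 10.5 and 6.27 CPM. Fbp1-deleted replicates 6 to 10 held 10.5, 10.5, 26.1, 10.3 and 11.7 CPM. All Fbp1-deleted livers but replicate 8 lay within the WT range, and replicate 8 held 2.72 times the WT mean. The log2 change was 0.53 (SE 0.29, adjusted p = 0.222, edgeR) and 0.17 without Fbp1-deleted replicate 8. The summed stellate markers of replicate 8, at 267 CPM, lay inside the range of the other Fbp1-deleted livers (245 to 323 CPM). The part of stellate cells in the Inhba level of replicate 8 was not tested.

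Inhbe (ENSMUSG00000047492.5, minus strand of chromosome 10, 127348857 to 127354411), the activin E subunit known chiefly from hepatocytes, did not pass either. In WT replicates 1 to 5 it stood at 62.9, 68.1, 80.2, 60.4 and 60.0 CPM. In Fbp1-deleted replicates 6 to 10 it stood at 92.8, 105, 64.6, 81.3 and 39.6 CPM. Replicates 6, 7 and 9 were above every WT liver, replicate 8 was within the WT range, and replicate 10 was below it. The log2 change was 0.21 (SE 0.21, adjusted p = 0.532, edgeR). It was 0.37 without Fbp1-deleted replicate 10 and 0.07 without Fbp1-deleted replicate 7. The antisense gene Gm47200 spans Inhbe without sharing exon bases and was assigned at most 3 counts in any library.

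Set against the subunits of activins A and B, follistatin transcript was higher in Fbp1-deleted liver. Per kb of annotated exon, Fst stood at 0.131 ± 0.0330 (SD, n = 5) of the sum of Inhba and Inhbb in WT, with livers between 0.0787 and 0.162. In Fbp1-deleted liver the ratio was 1.24 ± 0.963 (SD, n = 5). Replicates 6 to 10 gave 0.691, 0.586, 0.375, 2.05 and 2.50. The groups did not overlap, and replicate 8 was the lowest Fbp1-deleted liver. The ratio is built from the Fst levels described above, whose groups did not overlap either. It therefore adds no separate support to the rise of Fst. The summed subunits themselves were 1.99 ± 0.530 CPM per kb in WT and 3.40 ± 0.965 CPM per kb in Fbp1-deleted liver. Inhbe and Inhbc, the subunits of activins E and C, are not in that ratio and together stood well above Fst, at 38.4 ± 15.0 CPM per kb in WT and 48.9 ± 16.1 CPM per kb in Fbp1-deleted liver. The joined exons annotated for Fst span 4589 bases and its longest transcript 2921, and with the latter its level per kb is 0.389 in WT and 6.42 in Fbp1-deleted liver, so the size of the ratio depends on the length taken.

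Angptl4 (ENSMUSG00000002289.15, minus strand of chromosome 17, 33773750 to 33781830) rose moderately and evenly. Its level in WT replicates 1 to 5 was 176, 203, 263, 207 and 165 CPM. Its level in Fbp1-deleted replicates 6 to 10 was 291, 364, 280, 326 and 261 CPM. The groups overlapped only through WT replicate 3 and Fbp1-deleted replicate 10. The log2 change was 0.59 (SE 0.14, adjusted p = 0.00881, edgeR), or 1.50-fold. It was between 0.51 and 0.70 with each library left out, and the call held each time. It was lost with WT replicates 1 and 2 both left out (0.52, SE 0.16, adjusted p = 0.0639, edgeR).

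Angptl8 (ENSMUSG00000047822.8, plus strand of chromosome 9, 21835510 to 21837347) fell to low levels in every Fbp1-deleted liver from levels that varied widely in WT. WT replicates 1 to 5 held 129, 140, 34.4, 25.7 and 75.8 CPM. Fbp1-deleted replicates 6 to 10 held 16.2, 21.2, 17.2, 10.6 and 5.79 CPM. The groups did not overlap, though WT replicate 4 was only a little above Fbp1-deleted replicate 7, and WT livers spanned 5.43-fold. The log2 change was -2.51 (SE 0.56, adjusted p = 0.0147, edgeR), or 5.69-fold lower, and lay between -2.73 and -2.22 with each library left out. WT replicates 1 and 2 held the most Angptl8, and with both left out the call was lost (log2 change -1.67, SE 0.47, adjusted p = 0.0651, edgeR). Angptl8 lies inside an intron of Dock6, which runs on the opposite strand and shares no exon base with it. Dock6, a guanine nucleotide exchange factor gene, fell (log2 change -0.70, SE 0.13, adjusted p = 0.00262, edgeR), from 26.3 ± 3.78 to 16.2 ± 2.59 CPM.

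Angptl6 (ENSMUSG00000038742.7, minus strand of chromosome 9, 20873808 to 20879727), which encodes the angiopoietin-related growth factor, showed no call. WT livers held 16.5 to 24.9 CPM with a median of 20.2, and Fbp1-deleted livers 18.3 to 25.7 CPM with a median of 19.9. The groups overlapped over most of their ranges, with a log2 change of 0.12 (SE 0.14, adjusted p = 0.564, edgeR). It shares 265 exon bases with A230050P20Rik on the other strand, which fell (log2 change -0.49, SE 0.15, adjusted p = 0.0331, edgeR). That call was lost without WT replicate 1, 3 or 5, or without Fbp1-deleted replicate 6, 9 or 10 (with adjusted p from 0.0592 to 0.0937). Reads in the shared bases cannot be assigned to either gene by strand.

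Fetub (ENSMUSG00000022871.13, plus strand of chromosome 16, 22918334 to 22939778) encodes fetuin-B, an abundant plasma inhibitor of metalloproteinases, and fell slightly. In WT replicates 1 to 5 it stood at 376, 410, 603, 500 and 476 CPM. In Fbp1-deleted replicates 6 to 10 it stood at 309, 343, 408, 362 and 315 CPM. WT replicate 1 lay below Fbp1-deleted replicate 8, so the groups overlapped. The log2 change was -0.44 (SE 0.13, adjusted p = 0.0296, edgeR), or 1.36-fold lower. The call was lost without WT replicate 3, 4 or 5, or without Fbp1-deleted replicate 6, 7, 9 or 10 (with adjusted p from 0.0517 to 0.0844, changes between -0.46 and -0.34). With WT replicates 1 and 2 both left out, Fetub was called (log2 change -0.60, SE 0.12, adjusted p = 0.0142, edgeR). Ahsg, which encodes the related fetuin-A, stood at 7731 ± 911 CPM in WT and 8725 ± 1160 CPM in Fbp1-deleted liver and did not pass (adjusted p = 0.350, edgeR).

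Levels can be compared between members only per length. In WT, Fetub stood highest at 241 ± 44.9 CPM per kb of exon, followed by Angptl8 at 93.5 ± 60.6 and Angptl4 at 57.2 ± 10.8. Angptl6 (12.5 ± 2.11) and Inhbe (12.5 ± 1.58) came next, then Gdf15 (4.52 ± 1.41), Fgf21 (1.99 ± 0.673), Inhba (1.50 ± 0.415) and Fst (0.248 ± 0.0182). Some neighbours in that order did not differ beyond their SDs, namely Angptl8 with Angptl4, Angptl6 with Inhbe, and Fgf21 with Inhba. In Fbp1-deleted liver Angptl4 (86.0 ± 11.6) stood above Angptl8 (16.4 ± 6.99). Angptl8 and Fgf21, the latter at 12.4 ± 7.82 CPM per kb, came within the spread of Inhbe (14.4 ± 4.78) and Angptl6 (13.6 ± 2.19). Fst, at 4.09 ± 3.38 CPM per kb, came within the spread of Gdf15 (4.26 ± 2.59) and Inhba (2.17 ± 1.08). Fetub remained the highest at 177 ± 20.5 CPM per kb. GENCODE gives Inhbe 5319 exon bases, including the long first exon, so its level per kb is a low estimate if that exon is rarely used.

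Of 14 factors known to control these hormones 3 rose and 1 fell (28.6% called, near the 20.6% of all genes tested, median change 0.05), and some varied among Fbp1-deleted livers as Fgf21 did. Ddit3, which encodes the stress factor CHOP, stood at 5.35 to 8.59 CPM in WT. Fbp1-deleted replicates 6 to 10 held 45.6, 55.4, 5.53, 54.6 and 7.22 CPM of Ddit3, so replicates 6, 7 and 9 were above all WT livers and replicates 8 and 10 lay within the WT range. Its change was 2.23 (SE 0.67, adjusted p = 0.0462, edgeR). That call was lost with each WT library left out, without Fbp1-deleted replicate 6, 7 or 9 (with adjusted p from 0.0819 to 0.108 over these 8 fits), and under limma-voom (adjusted p = 0.118), upper quartile scaling (0.0503) and library totals (0.0523). Atf4 stood at 75.3 to 93.0 CPM in WT and at 128, 149, 83.8, 163 and 79.6 CPM in replicates 6 to 10. It did not pass (0.49, SE 0.19, adjusted p = 0.0796, edgeR), but did without Fbp1-deleted replicate 8 or 10 (adjusted p = 0.0209 and 0.0238) and with DESeq2 (adjusted p = 0.0438). The livers with the most Fgf21, Gdf15 and Inhbe among the Fbp1-deleted were those with the most Ddit3 and Atf4.

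**Figure D3:**
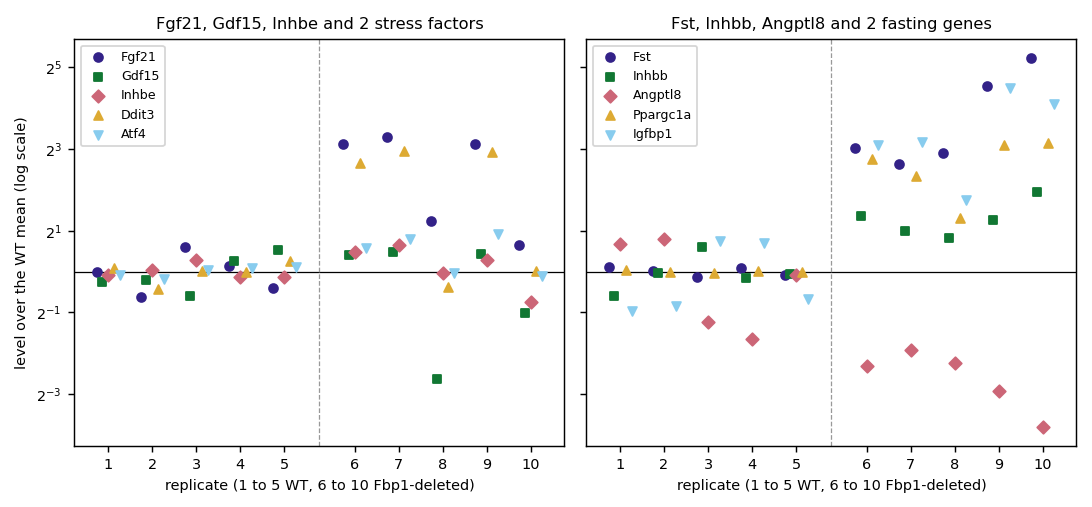
Level of selected genes over their WT mean on a log2 axis, by replicate (1 to 5 WT, 6 to 10 Fbp1-deleted). On the left Fgf21, Ddit3 and Atf4 stand high in replicates 6, 7 and 9 and near or closer to the WT mean in 8 and 10, where Gdf15 is at 0.162 and 0.494 times. On the right Fst, Ppargc1a and Igfbp1 are above the WT mean in all 5 Fbp1-deleted livers and Angptl8 is below it.

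Atf3, another stress factor, rose (log2 change 1.61, SE 0.43, adjusted p = 0.0200, edgeR). Its call was lost without WT replicate 2 or 5 (adjusted p = 0.0562 and 0.0542) and under limma-voom (0.0756). The fasting coactivator gene Ppargc1a was at 9.91 to 10.4 CPM in WT and at 69.1, 51.7, 25.3, 87.5 and 90.9 CPM in Fbp1-deleted replicates 6 to 10. It rose (log2 change 2.67, SE 0.30, adjusted p = 2.66e-04, edgeR). As with Fst, its highest levels were in replicates 9 and 10. Nr3c1, the glucocorticoid receptor gene, fell (log2 change -0.51, SE 0.11, adjusted p = 0.00744, edgeR). Ppara, Mlxipl (which encodes ChREBP) and Creb3l3, 3 factors known to induce Fgf21, did not pass, with log2 changes of -0.38, -0.33 and 0.30. Ppara passed, as lower, with upper quartile scaling (adjusted p = 0.0458, edgeR), with library totals (0.0401) and without WT replicate 1 (0.0403). Mlxipl passed, as lower, without WT replicate 4 (adjusted p = 0.0485, edgeR). Creb3l3 passed, as higher, with DESeq2 (adjusted p = 0.0161) and without WT replicate 4 (0.0478), Fbp1-deleted replicate 8 (0.04000) or Fbp1-deleted replicate 10 (0.0448).

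Receptors for these hormones either fell or did not pass. Of 12 receptors and coreceptors tested 3 fell (25% called, near the 20.6% of all genes tested, median change -0.09). Acvr2b, a type II activin receptor gene, stood at 9.94, 9.77, 11.6, 11.1 and 16.5 CPM in WT and at 2.63, 2.73, 4.31, 2.18 and 2.87 CPM in Fbp1-deleted liver. The groups did not overlap, and it fell (log2 change -1.99, SE 0.20, adjusted p = 3.84e-05, edgeR). Fgfr3 fell (log2 change -1.22, SE 0.22, adjusted p = 0.00262), from 49.2 ± 8.13 to 21.1 ± 7.94 CPM. Acvr1b, a type I activin receptor gene, fell (log2 change -0.46, SE 0.16, adjusted p = 0.0497), a call lost without any one of the 5 WT replicates except replicate 4 and without any one Fbp1-deleted replicate except replicate 8 (with adjusted p from 0.0721 to 0.106), and with RLE factors (0.0513). The beta-Klotho gene Klb was at 20.7 ± 5.83 CPM in WT and 23.2 ± 4.06 CPM in Fbp1-deleted liver (0.16, SE 0.19, adjusted p = 0.584). The main hepatic FGF receptor gene, Fgfr4, was at 54.2 ± 15.0 and 50.5 ± 3.37 CPM (adjusted p = 0.688), and Fgfr1 at 7.17 ± 2.83 and 6.59 ± 1.13 CPM (adjusted p = 0.749, edgeR).

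The list of FGF and activin signalling outputs joins SMAD effectors, such as Smad2, Smad3 and Smad4, with feedback and response genes. Of its 17 genes 1 rose and 7 fell (47.1% called, against 20.6% of all genes tested, median change -0.36). The list was chosen with earlier results of these data known, so that share is not a test of it. Spry4, a feedback inhibitor induced by FGF signalling, fell from 11.2 ± 2.31 to 2.40 ± 1.08 CPM (log2 change -2.22, SE 0.27, adjusted p = 1.78e-04, edgeR). Among the SMAD genes the inhibitory Smad6 fell (log2 change -1.01, SE 0.21, adjusted p = 0.00505) and so did the activin effector Smad2 (log2 change -0.55, SE 0.14, adjusted p = 0.0138). Skil, a SMAD corepressor gene, rose (log2 change 0.72, SE 0.17, adjusted p = 0.01003). The others that fell were Id2, Spred1, Dusp6 and Egr1, with changes between -0.89 and -0.57. The call of Dusp6 was lost without WT replicate 2 or 3, or without Fbp1-deleted replicate 6 or 7, and that of Egr1 with any one library left out except WT replicate 3 and Fbp1-deleted replicate 9 (adjusted p from 0.0501 to 0.0902 over all these fits).

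Of 11 relatives of the members tested 2 rose, 1 fell and 8 did not pass (27.3% called, near the 20.6% of all genes tested, median change 0.23). Inhbb, the activin B subunit gene, stood at 1.38, 2.04, 3.14, 1.86 and 2.01 CPM in WT and at 5.32, 4.18, 3.68, 5.04 and 8.05 CPM in Fbp1-deleted liver, with no overlap. It rose (log2 change 1.33, SE 0.26, adjusted p = 0.00320, edgeR), while Inhba and Inhbe did not pass. Gdf2, which encodes BMP9, a factor made by stellate cells, rose (log2 change 0.53, SE 0.13, adjusted p = 0.0104), and Fgf1 fell (log2 change -0.70, SE 0.18, adjusted p = 0.0156). Of the stellate markers only Dcn rose (adjusted p = 0.0491, edgeR), a call lost with any one library left out except WT replicates 1 and 3 and Fbp1-deleted replicate 8 (adjusted p from 0.0556 to 0.130), and when scaled by upper quartiles (0.123) or by library totals (0.116). The part of stellate cells in the Gdf2 result was not tested.

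The lipases that angiopoietin-like proteins act on showed 1 rise. Lpl, the target of Angptl4 and Angptl8, was at 10.8 ± 1.82 CPM in WT and 11.6 ± 2.58 CPM in Fbp1-deleted liver and did not pass (0.11, SE 0.17, adjusted p = 0.685, edgeR). Lipg, the endothelial lipase gene, stood at 31.2, 37.3, 33.3, 11.5 and 27.4 CPM in WT and at 114, 107, 54.9, 103 and 91.6 CPM in Fbp1-deleted liver. The groups did not overlap, and it rose (log2 change 1.74, SE 0.30, adjusted p = 0.00310). The lipoprotein receptor genes Vldlr (log2 change -1.52, SE 0.31, adjusted p = 0.00537) and Lrp1 (log2 change -0.75, SE 0.17, adjusted p = 0.00936) fell. Of the 9 genes in that list 1 rose and 2 fell (33.3% called, against 20.6% of all genes tested, median change 0.04).

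Of 17 other liver hormones and their carriers tested, 4 rose and 2 fell (35.3% called, against 20.6% of all genes tested, median change 0.13). This list too was chosen with earlier results of these data known. Igf1 fell (log2 change -0.68, SE 0.13, adjusted p = 0.00300) and Thpo, which encodes thrombopoietin, fell too (log2 change -0.70, SE 0.14, adjusted p = 0.00396). Igfbp1, the insulin-repressed binding protein, was at 768, 805, 304, 2003 and 1534 CPM in Fbp1-deleted replicates 6 to 10, against at most 150 CPM in WT. Its highest livers, 9 and 10, were those with the most Fst. Igfbp2 rose (log2 change 0.58, SE 0.16, adjusted p = 0.0212, edgeR), a call lost without WT replicate 1, 2 or 5, or without Fbp1-deleted replicate 7 (with adjusted p from 0.0514 to 0.0611). Manf, a secreted protein of the endoplasmic reticulum stress response, was at 298, 286, 61.2, 256 and 77.2 CPM in replicates 6 to 10 and at 32.9 to 67.5 CPM in WT, with the same 3 livers high as for Fgf21. It rose (log2 change 2.01, SE 0.50, adjusted p = 0.0212, edgeR), which was lost without WT replicate 1, 2 or 5, or without Fbp1-deleted replicate 6 or 9 (with adjusted p from 0.0526 to 0.0571). Hgf rose (log2 change 1.04, SE 0.30, adjusted p = 0.0263, edgeR), a call lost without WT replicate 1, 2 or 5, or without Fbp1-deleted replicate 6, 9 or 10 (with adjusted p from 0.0568 to 0.0696).

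**Figure D4:**
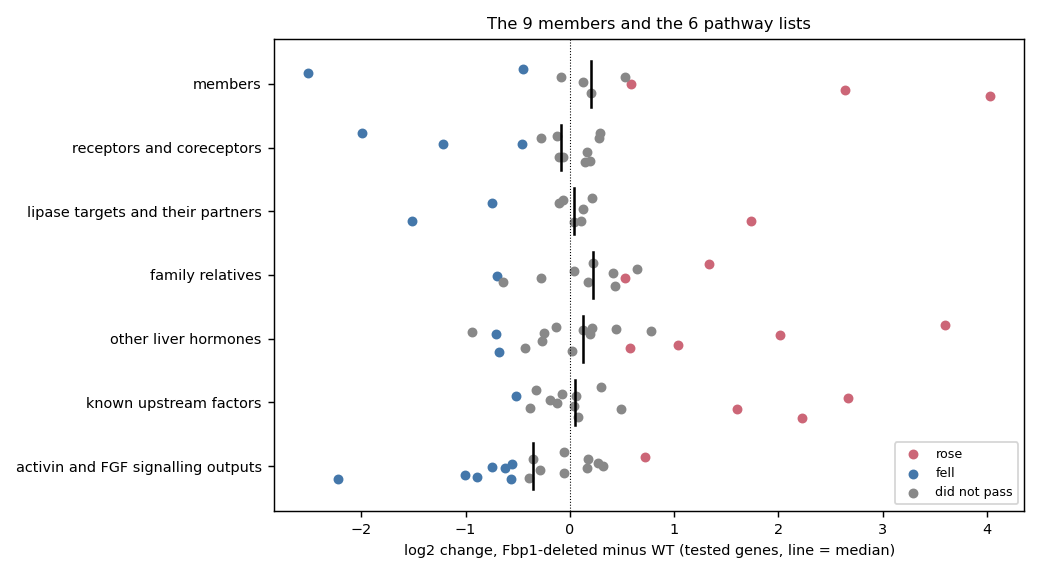
Log2 change, Fbp1-deleted minus WT, of each tested gene (points, coloured by call) in the 9 members and the 6 pathway lists, with a line at the median of each list. Medians run from -0.36 for the signalling outputs to 0.23 for the family relatives.

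Over the 6 lists together 11 of 80 tested genes rose and 16 fell, 33.8% called against 20.6% of all genes tested. The lists were chosen with earlier results of these data known. This share and those of the single lists are therefore descriptions and not tests of the lists. The number that rose was 7 without WT replicate 1, 6 without WT replicate 2 and 6 without WT replicate 5. With WT replicates 1 and 2 both left out 4 rose and 12 fell. Of the genes named from these lists, Acvr2b, Fgfr3, Lipg, Vldlr, Lrp1, Inhbb, Fgf1, Igf1, Thpo, Igfbp1, Ppargc1a, Nr3c1, Spry4 and Smad6 were called in that fit, and Ppara passed as lower (adjusted p = 0.0467, edgeR). The calls of Acvr1b, Gdf2, Igfbp2, Manf, Hgf, Atf3, Ddit3, Smad2, Skil, Id2, Spred1, Dusp6 and Egr1 were lost in it (adjusted p from 0.0599 to 0.191, edgeR), as was that of Dcn (0.0677).

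For each member that was called, the genes with the most similar profile over the 10 livers were sought among 11137 genes whose log2 CPM averaged 1 or more, leaving out provisional symbols. Likeness was the root mean squared difference between log2 CPM profiles, each centred and divided by its own SD, so that 0 is an identical shape. The closest to Fgf21 were Slc27a3 (0.181), a fatty acid transport protein gene, Creld2 (0.216), a gene of the endoplasmic reticulum stress response, and Tspyl2 (0.224). Creld2 stood at 9.98, 11.2, 1.66, 9.63 and 1.45 times its WT mean in Fbp1-deleted replicates 6 to 10. Closest to Fst were Atp1b1 (0.149), a sodium pump subunit gene, Map7 (0.190) and Zfp281 (0.194). For Angptl8 they were Cenpv (0.127), Polm (0.192) and the chemokine gene Cxcl11 (0.204). For Angptl4 they were Thoc5 (0.233), Alpl (0.255) and Anxa7 (0.273), and for Fetub Fbxo31 (0.269), Slc39a1 (0.299) and Myo18a (0.308). All but Thoc5 were called in the direction of their member, which the choice by likeness over these same livers builds in. Single libraries decided some of these calls: that of Creld2 was lost without WT replicate 2 or 5, that of Tspyl2 without WT replicate 1, 2, 3 or 5, or without Fbp1-deleted replicate 6 or 9, that of Cenpv without WT replicate 1, 2 or 5, or without Fbp1-deleted replicate 6, 9 or 10, and that of Slc39a1 without WT replicate 3 or Fbp1-deleted replicate 6 or 9 (with adjusted p from 0.0503 to 0.0886 over all these fits). With WT replicates 1 and 2 both left out, the calls of Slc27a3, Creld2, Tspyl2, Cenpv, Polm and Cxcl11 were lost (adjusted p from 0.0529 to 0.190, edgeR).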

How the data were processed

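RNA of 10 frozen livers was read as paired fragments from libraries that do not keep the strand, per the labels' protocols and the series' design text, which calls the 5 livers of a group biological replicates. The deposited values are estimated counts per gene. Per the submitters' processing notes, Salmon and GRCm38 were used, without versions, and whether the authors adjusted the deposited counts for transcript length is not given in the sources used here. All values were whole numbers. The design text also names STAR, featureCounts and DESeq2 for the authors' own tests, and which route gave the table rests on its name. Of 53392 genes, 52175 matched GENCODE M21 by identifier and version and 1180 by identifier alone. Within groups, library pairs differed by a chi-square of at least 16.2 per degree of freedom, and none was treated as a duplicate.

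The test was the robust quasi-likelihood F test of edgeR 4.0.16 (R 4.3.3) after filterByExpr, with TMM factors, which also scale the CPM, and group as the only term. The size of a log2 change over the root of its F statistic gives the SE. Exon length is the union of GENCODE M21 exons. The fit was tested on simulated data. Alternatives were RLE, upper quartile and total scaling, no filter, a stricter filter, DESeq2 1.42.0, limma-voom (limma 3.58.1), no robust shrinkage, a threshold of 0.01 and each library left out, and, chosen after seeing the data, WT replicates 1 and 2 both left out. The members and lists were chosen with earlier results of these data known. The text names all members, genes overlapping them, the 4 called genes with the smallest adjusted p of each list with those of opposite direction, and the 3 nearest profiles. Chosen after their values were seen were Klb, Fgfr1, Fgfr4, Gfral, Ret, Lpl, Ahsg, Atf4, Manf, Hgf, Inhbc, Tsku, Tat, Cps1, Dcn, Lyve1, Clec4g, Stab2, Kdr, Pecam1, Oit3, Cela1, Plin4, Lep, Adipoq, Id2, Spred1, Dusp6, Egr1, Ppara, Mlxipl and Creb3l3. Motifs were also chosen then. The ratio of Fst to Inhba and Inhbb was not among the results planned beforehand. Sequences are from RefSeq, build GRCm38.p6.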

Additional observations from a re-analysis of the deposited data

Results flagged for a closer look

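Inhba in Fbp1-deleted replicate 8, at 26.1 CPM, lay far from the other 4 Fbp1-deleted livers, which held 10.3 to 11.7 CPM. Over the 9 members 18 groups of 5 livers were examined in this way and 1 stood out, where chance alone gives about 1 in 20. Replicate 8 was also the lowest of all 10 livers for Gdf15 (1.36 CPM).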

How the results depend on the processing

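The labels give no pairing of WT with Fbp1-deleted livers, so no paired analysis was made. Apart from the threshold of 0.01 and the fit without WT replicates 1 and 2 together, there were 18 alternatives. The calls of Fgf21, Fst, Angptl4 and Angptl8 held under all 18, and Inhbe, Inhba, Angptl6 and Gdf15 passed under none. Fetub kept its call under 11 of the 18. With WT replicates 1 and 2 both left out, only Fst of Fgf21, Fst, Angptl4 and Angptl8 was called. With the threshold at 0.01, 678 genes were higher and 633 lower, and 0 members were lower. The calls of Angptl8 (adjusted p = 0.0147, edgeR) and Fetub (0.0296) were thus lost at that threshold. With 1 library left out, genes higher numbered 1066 (without Fbp1-deleted replicate 9) to 2060, genes lower 1019 (without Fbp1-deleted replicate 6) to 1858, members lower 1 to 2 and pathway list genes higher 6 to 14. With WT replicates 1 and 2 both left out, an alternative chosen after seeing the data, 750 genes were higher and 816 lower, 1 member was higher (Fst) and 1 lower (Fetub), and 4 pathway list genes were higher; Klb (-0.059) and Inhbc (-0.093) turned sign, and fewer WT livers remained in that fit. With 1 library left out, the fitted change of Gdf15 ran from -0.27 to 0.19, that of Fgfr1 from -0.24 to 0.13, that of Fgfr4 from -0.22 to 0.0034 and that of Lpl from -0.019 to 0.21. Without a filter on low counts the calls of Acvr1b, Ddit3, Manf, Hgf, Egr1, Tspyl2 and Cenpv were lost (adjusted p from 0.0555 to 0.137). Per kb of the longest transcript, Fst stood at 0.389 in WT, and Fetub at 296 in WT and 217 in Fbp1-deleted liver. The WT level of Fst rests on 19 to 28 counts per library and that of Fgf21 on 28 to 53.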

Other observations

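WT livers differed among themselves in hormone transcripts. Inhbc, which encodes the activin C subunit, stood at 17.3 and 18.9 CPM in WT replicates 1 and 2 and at 64.1, 73.8 and 66.9 CPM in replicates 3, 4 and 5, against 31.4 to 88.3 CPM in Fbp1-deleted liver. It did not pass (0.41, SE 0.47, adjusted p = 0.577, edgeR), and its change was -0.093 with WT replicates 1 and 2 both left out. Tsku, which encodes tsukushi, was also lowest in WT replicates 1 and 2 (57.9 and 64.2 CPM, against 146 to 175 CPM in the other 3) and did not pass (adjusted p = 0.120, edgeR), but did, as lower, with both left out (adjusted p = 0.0226, edgeR). In the same replicates 1 and 2 Angptl8 was highest, at 129 and 140 CPM. These 2 libraries also had the highest mitochondrial shares among WT livers (6.47 and 5.52%), whose part in this spread was not tested.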
